A study of Mus musculus with 2 samples.

Results

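The genes described here are the secreted and membrane-bound parts of the Wnt pathway in brown fat, the depot that burns lipid for heat: Wnt ligands, R-spondins, secreted antagonists, Frizzled receptors, the co-receptors Lrp5 and Lrp6, and the scaffold proteins Axin1 and Axin2. They were taken by name, as every mouse symbol that starts with Wnt, Fzd, Sfrp, Dkk, Rspo or Axin followed by digits and at most 1 letter, together with Lrp5 and Lrp6. The RefSeq gene table holds 45 such genes. Of these, 31 had a value in at least 1 library and 20 reached 0.5 FPKM (fragments per kilobase of transcript, scaled to library size) in either library, among 12869 genes of the whole data set that did so. Those 20 are the members compared. The members just inside the threshold by their higher library were Dkk3 at 0.69 FPKM and Wnt2 at 0.87 FPKM, and those just outside it were Wnt5b at 0.48 FPKM and Fzd3 at 0.45 FPKM.

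RNA sequencing was done on whole brown fat of female C57BL/6 mice fed chow to an age of 45 weeks, with 1 library per genotype. The control genotype was D3Bfl/fl and the knockout genotype D3Bfl/fl-UCP1-Cre+/-, so both carried the floxed alleles and the knockout in addition a Cre recombinase under the Ucp1 promoter, which is active in brown adipocytes. D3B is read here as Dnmt3b, which encodes a de novo DNA methyltransferase; cells of the tissue that do not use the Ucp1 promoter are not targeted. The labels give no count of mice per library, no Cre in the control, and, in the run names, a different sequencer lane for each genotype, so Cre, lane and genotype cannot be told apart. Without replicates there is no test and no p-value: each ratio below is knockout over control, followed by its 95% counting interval, which is exact, covers counting error only, treats each read as a separate molecule although the reads were copied by PCR, and compares these 2 libraries. The libraries held 9666528 and 10068359 expected counts. Dnmt3b itself was at 0.39 FPKM in control and 0.18 FPKM in knockout fat (15 and 7 counts), and its ratio of 0.46 (0.15 to 1.17) included 1, so a loss was not detectable at this depth, and exons outside the deleted part count towards these values. All 12 brown adipocyte markers were present, with Ucp1 at 4987 and 4271 FPKM.

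Wnt proteins are lipid-modified secreted signals. In the canonical branch they join a Frizzled receptor to LRP5 or LRP6, which stops the Axin-based destruction complex from breaking down beta-catenin, so that beta-catenin enters the nucleus and acts with TCF/LEF factors. Secreted frizzled-related proteins (SFRPs) resemble the ligand-binding part of Frizzled and can bind Wnts, Dickkopf proteins act on the LRP co-receptors, and R-spondins raise receptor levels by way of LGR receptors. In fat, canonical Wnt signalling is known to hold back the formation of adipocytes.

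The knockout library had more transcript of several secreted regulators and a sum of ligand transcripts that did not differ beyond counting error. A member is called higher or lower here when (FPKM + 1) differed by at least 1.5-fold and the counting interval of the ratio excluded 1. By that rule 3 of the 20 members were higher (Sfrp1, Sfrp5 and Rspo4) and 1 was lower (Fzd6). Over all 12869 genes the same rule called 4.18% higher and 3.41% lower. The median log2((FPKM + 1) ratio) was 0.12 for the members and -0.02 for all genes. Of the members 14 lay above 0 and 6 below, and of all genes 46.5% lay above 0. The calls made up 15% and 5% of the members, shares that rest on 3 genes and 1 gene. The threshold was met in both libraries by 19 of the 20 members, and by Wnt2 through the knockout library alone.

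**Figure D1:**
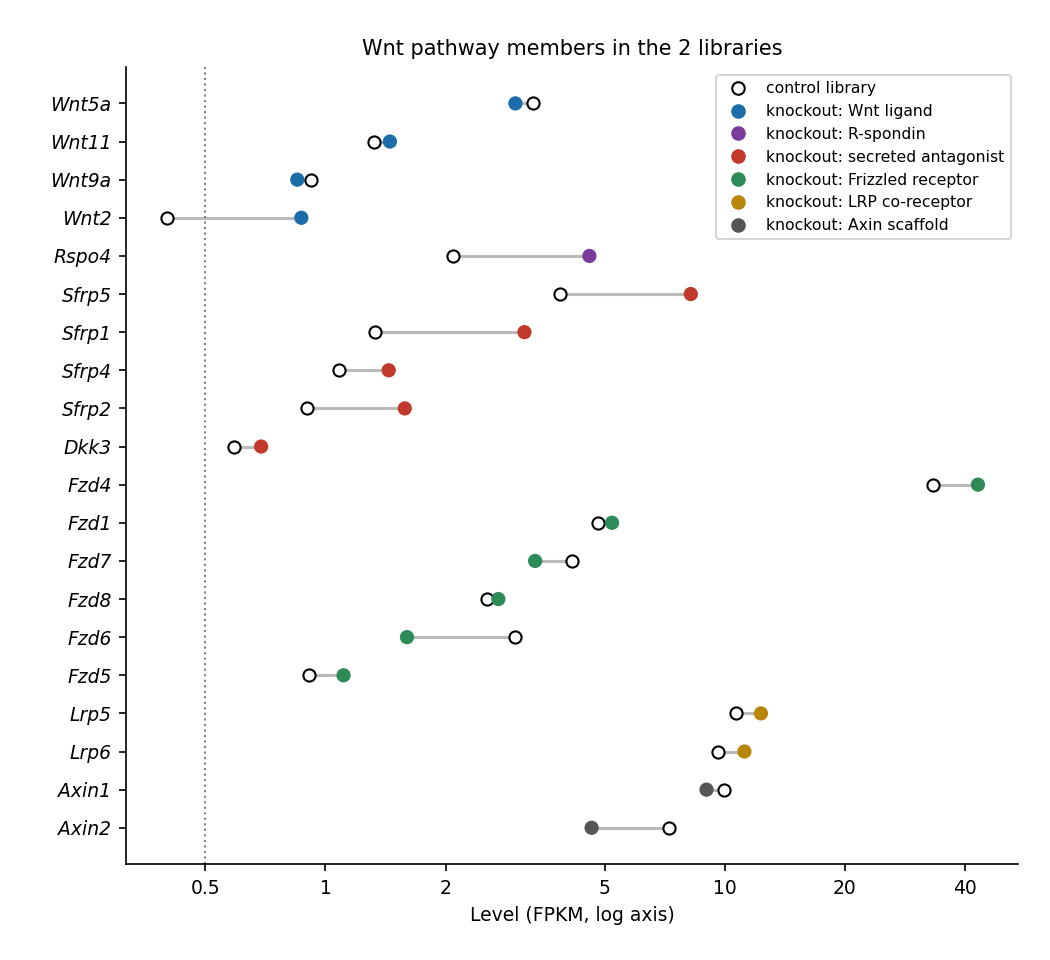
Level in FPKM (log axis) of the 20 members, ordered by role, with the control library as open circles, the knockout library as filled circles coloured by role, and the 0.5 FPKM threshold as a dotted line. Sfrp5, Sfrp1 and Rspo4 lie well to the right of their control value, Fzd6 and Axin2 to the left, and Fzd4 stands apart as the most abundant member at 33.1 and 43.1 FPKM.

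Among the 19 Wnt ligand genes, 10 had a value and 4 passed the threshold. Wnt5a, a ligand known mainly for beta-catenin-independent signalling, was the most abundant at 3.31 FPKM in control and 2.99 FPKM in knockout fat (123 and 115 counts). Its ratio of 0.90 (0.69 to 1.17) included 1. Wnt11, another ligand of the non-canonical branch, was at 1.32 and 1.45 FPKM, with a ratio of 1.10 (0.68 to 1.78). For Wnt5a and Wnt11 no difference beyond counting error was seen, although the Wnt11 interval reached past 1.5-fold. Wnt9a was at 0.92 and 0.85 FPKM, with a ratio of 0.92 (0.53 to 1.61). Wnt2, a canonical ligand, was at 0.40 FPKM in control and 0.87 FPKM in knockout fat, but on 8 and 18 counts. Its interval, 0.89 to 5.74 around a ratio of 2.17, included 1, so a difference was not detectable at this depth.

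The other 6 detected ligand genes stayed below 0.5 FPKM in each library. Wnt10b, a canonical ligand known to hold back adipocyte formation, was at 0.33 and 0.36 FPKM on 7 and 8 counts. Wnt5b, a close relative of Wnt5a, was at 0.20 and 0.48 FPKM on 4 and 10 counts, with an interval of 0.69 to 10.5. Wnt4 was at 0.43 and 0.29 FPKM, from estimated counts that were not whole and so include reads shared with another gene. Wnt2b and Wnt6 had at most 6 counts in a library, and Wnt16 had 1 count in the control library and none in the other, where a count of 0 allows up to 3 counts. None of these low members had an interval that excluded 1. Wnt1, Wnt3, Wnt3a, Wnt7a, Wnt7b, Wnt8a, Wnt8b, Wnt9b and Wnt10a had no value in either library. Summed over all ligand genes the level was 7.3 FPKM in control and 7.45 FPKM in knockout fat, and the ratio of summed counts per library size was 0.97 (0.81 to 1.17). Wnt5a made up 45.3% and 40.1% of that sum.

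R-spondin transcript was mostly Rspo4. It was at 2.09 FPKM in control and 4.58 FPKM in knockout fat (47 and 107 counts), which gives a ratio of 2.19 (1.54 to 3.15). By its log2((FPKM + 1) ratio) of 0.85, Rspo4 ranked 212 from the top among the 12869 genes. Rspo1 was at 0.41 and 0.33 FPKM on 7 and 6 counts, and Rspo2 and Rspo3 had no value. R-spondins work by binding Lgr4, Lgr5 or Lgr6 and removing the ubiquitin ligases Znrf3 and Rnf43 from the cell surface. Of these partners, Lgr6 was the most abundant at 27.0 and 21.1 FPKM, a ratio of 0.78 (0.71 to 0.86). Lgr4 was at 4.81 and 4.41 FPKM, with a ratio of 0.92 (0.76 to 1.10), and Znrf3 at 1.20 and 1.05 FPKM. Rspo4 was thus higher in the knockout library while neither Lgr4 nor Lgr6 was.

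Among the 5 secreted antagonists that passed the threshold, Sfrp5 and Sfrp1 were higher in the knockout library, and Sfrp2, Sfrp4 and Dkk3 had ratios above 1 with intervals that included 1. Sfrp5, an SFRP released by adipocytes that can bind Wnt5a, was the most abundant at 3.86 FPKM in control and 8.22 FPKM in knockout fat (69 and 153 counts). Its ratio was 2.13 (1.59 to 2.87) and its log2((FPKM + 1) ratio) 0.92, rank 157 from the top, the highest among the members. Sfrp1, which is also found in fat and stroma, was at 1.33 and 3.15 FPKM (56 and 138 counts), with a ratio of 2.37 (1.72 to 3.29) and rank 226. For both genes the whole interval lay above 1.5, but neither these nor Rspo4 reached 2-fold on the (FPKM + 1) scale, and all 3 calls ended with a pseudocount of 5 FPKM. Sfrp2, a product of stromal cells, was at 0.90 and 1.58 FPKM on 17 and 31 counts, and its ratio of 1.76 (0.94 to 3.37) included 1. Sfrp4 was at 1.08 and 1.44 FPKM on 18 and 25 counts, with a ratio of 1.33 (0.70 to 2.59). The Sfrp2 and Sfrp4 values are thus too shallow to separate a difference like that of Sfrp1 from none.

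Dickkopf transcript was scarce. Dkk3, a divergent family member whose part in Wnt signalling is less clear, was at 0.59 and 0.69 FPKM on 19 and 23 counts, a ratio of 1.17 (0.61 to 2.26). Dkk2 was at 0.14 and 0.24 FPKM on 5 and 9 counts, and Dkk1 and Dkk4 had no value. The antagonist total was therefore carried by the Sfrp genes, whose summed level was 7.17 FPKM in control and 14.4 FPKM in knockout fat. The ratio of their summed counts per library size was 2.08 (1.72 to 2.53). Most of the Sfrp sum came from Sfrp5 and Sfrp1, the 2 Sfrp genes called higher, so its ratio is not separate from theirs. Within the Sfrp sum, Sfrp5 held 53.8% in the control and 57.1% in the knockout library, and Sfrp1 18.5% and 21.9%.

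**Figure D2:**
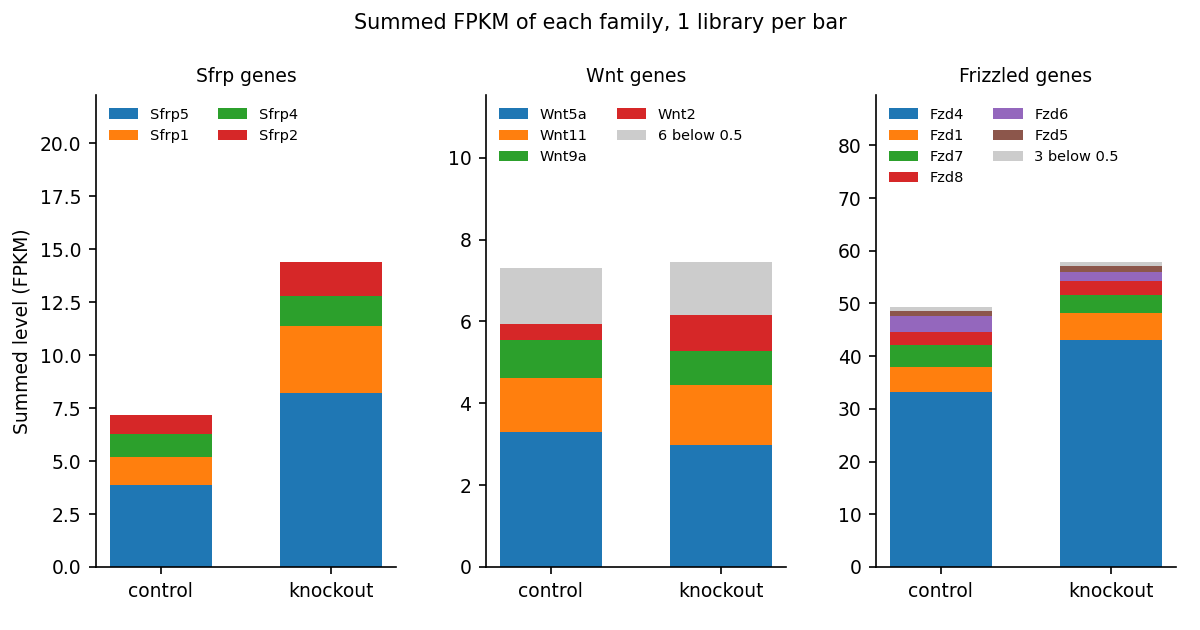
Summed level in FPKM of the Sfrp, Wnt and Frizzled genes, with 1 bar per library and each gene as a segment; genes under 0.5 FPKM in each library are joined in grey, and each panel has its own axis from 0. The Sfrp bar goes from 7.17 to 14.4 FPKM while the Wnt bars are at 7.3 and 7.45 FPKM, and Fzd4 fills most of the Frizzled bars.

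The Frizzled receptors were dominated by Fzd4 in each library. Fzd4, a receptor that is prominent in blood vessels and also serves the non-Wnt ligand norrin, was at 33.1 FPKM in control and 43.1 FPKM in knockout fat (1167 and 1578 counts). Its ratio of 1.30 (1.20 to 1.40) excluded 1 but was short of 1.5-fold. Fzd4 made up 67.2% of all Frizzled FPKM in the control and 74.4% in the knockout library. Fzd6, a receptor linked to planar cell polarity, was the lower member, at 2.99 FPKM in control and 1.6 FPKM in knockout fat (117 and 65 counts). Its ratio was 0.54 (0.39 to 0.73) and its log2((FPKM + 1) ratio) -0.62, rank 435 from the bottom. The call of Fzd6 was lost when FPKM totals were made equal between the libraries, which brought that log2 value to -0.56. Its share of Frizzled FPKM was 6.06% in the control and 2.77% in the knockout library.

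The remaining receptors differed less. Fzd1, second in abundance, was at 4.82 and 5.22 FPKM with a ratio of 1.08 (0.89 to 1.31). Fzd7 was at 4.14 and 3.35 FPKM, and the interval of its ratio, 0.81 (0.65 to 1.004), just included 1. Fzd8 at 2.54 and 2.71 FPKM and Fzd5 at 0.91 and 1.11 FPKM had ratios of 1.07 (0.78 to 1.46) and 1.22 (0.86 to 1.74). For these 4 receptors no difference beyond counting error was seen. Below the threshold, Fzd3 was at 0.45 and 0.38 FPKM on 55 and 49 counts and Fzd2 at 0.29 and 0.42 FPKM on 10 and 15 counts. Fzd10 had 1 count in the control library, and Fzd9 had no value.

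The co-receptors Lrp5 and Lrp6 were higher by a small and similar amount. Lrp5 was at 10.7 FPKM in control and 12.3 FPKM in knockout fat, which gives a ratio of 1.15 (1.02 to 1.29). Lrp6 was at 9.64 and 11.2 FPKM, with a ratio of 1.16 (1.06 to 1.27). Both intervals lay above 1, as did those of 17.5% of all genes, and neither ratio came near 1.5. The Axin genes lay on the other side. Axin1, the constitutive scaffold of the destruction complex, was at 9.95 and 9.0 FPKM with a ratio of 0.90 (0.78 to 1.05). Axin2, its inducible counterpart and a commonly used readout of beta-catenin activity, was at 7.27 FPKM in control and 4.64 FPKM in knockout fat (298 and 198 counts). The Axin2 ratio was 0.64 (0.53 to 0.77) and its log2((FPKM + 1) ratio) -0.55, just inside the limit of the rule. Intervals wholly below 1, as those of Axin2 and Fzd6 were, were found for 21.2% of all genes. With a pseudocount of 0.1 FPKM Axin2 was past the rule, at -0.64. The ratio of Axin1 and Axin2 counts together was 0.78 (0.70 to 0.88). Most of that difference came from Axin2, so the joint ratio is not separate from the Axin2 ratio, and the interval of Axin1 alone included 1.

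**Figure D3:**
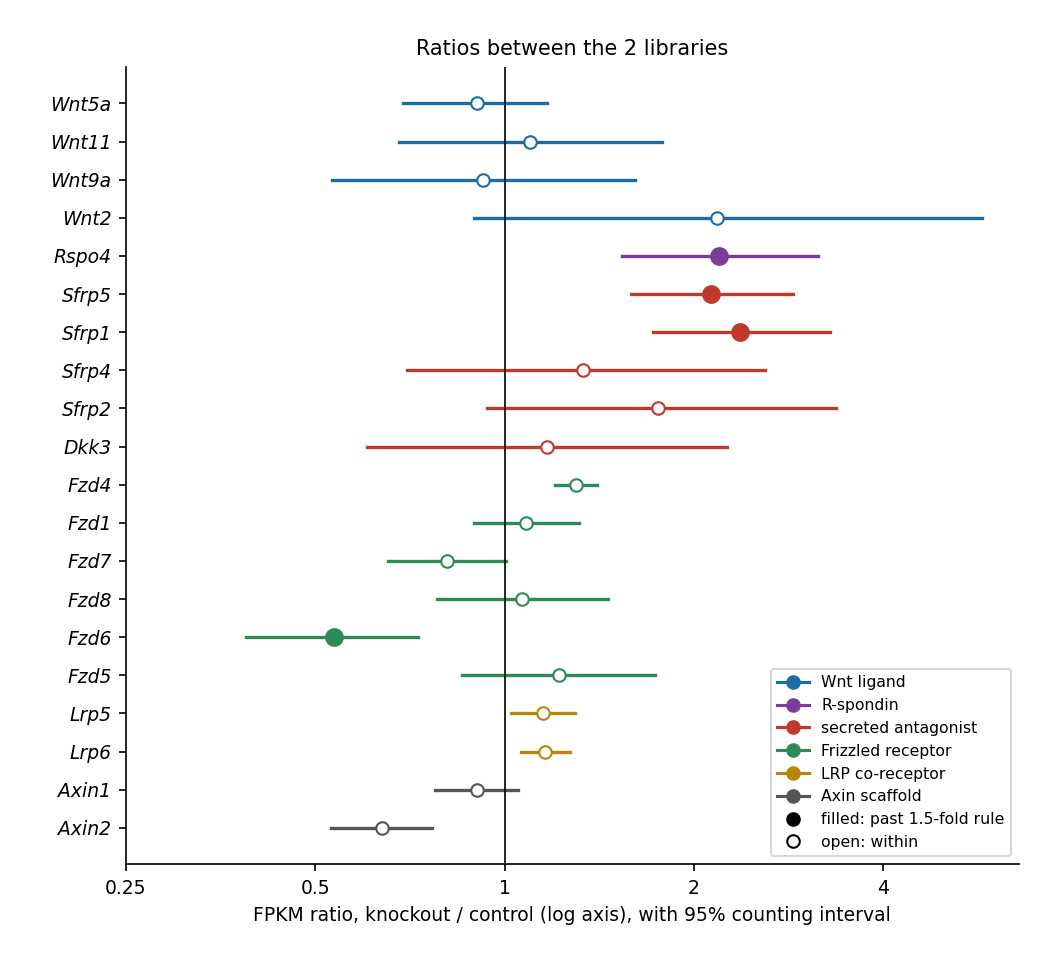
FPKM ratio of knockout to control (log axis) for the 20 members with the 95% counting interval as a line, coloured by role; filled points are past the 1.5-fold rule and open points are within it. The intervals of Sfrp1, Sfrp5 and Rspo4 lie wholly above 1 and those of Fzd6 and Axin2 wholly below, while the intervals of Wnt2, Sfrp2, Sfrp4 and Dkk3 are wide and include 1.

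**Figure D4:**
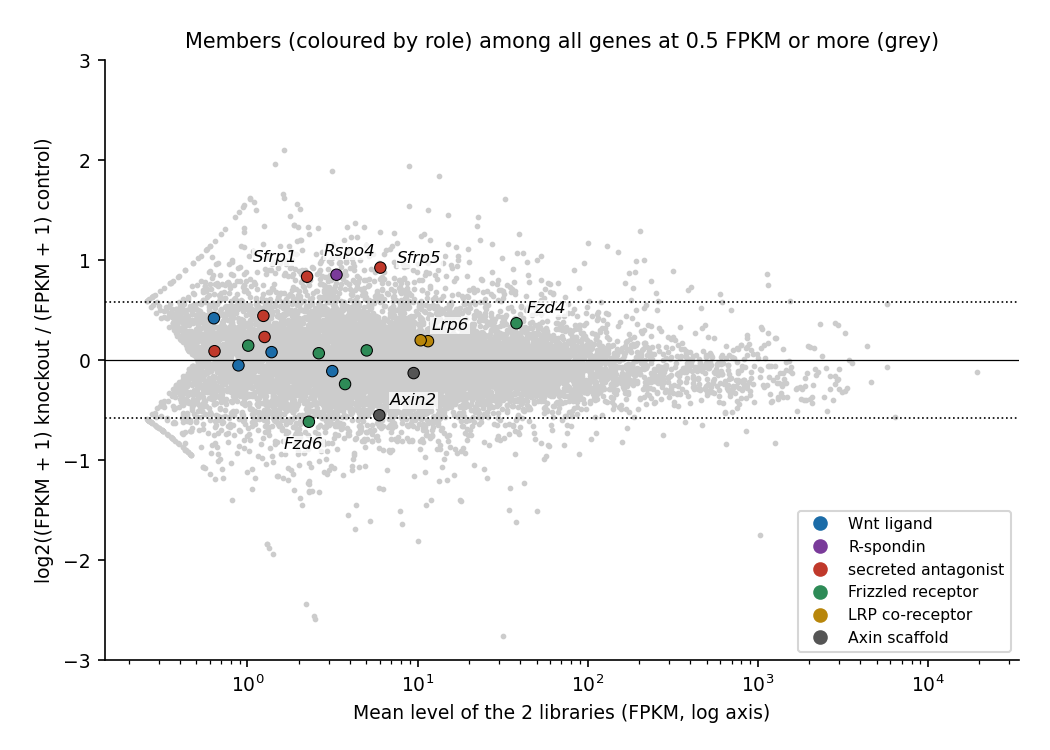
Mean level of the 2 libraries (FPKM, log axis) against log2((FPKM + 1) ratio) for all 12869 genes at 0.5 FPKM or more (grey) and the 20 members (coloured by role), with dotted lines at 1.5-fold. Sfrp5, Rspo4 and Sfrp1 lie above the upper line at 0.92, 0.85 and 0.83, Fzd6 at -0.62 just below the lower line and Axin2 at -0.55 just above it.

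Promoter sequence is shown for Rspo4 and Sfrp5, which were past the rule on the higher side, and for Axin2, which was lower but within it. The sequence table used here has no entry for Sfrp1 and Fzd6. The windows are given because the targeted enzyme methylates cytosine in CG steps, and these windows show how many such steps lie at the start of each gene. Each sequence is from RefSeq (build GRCm38.p6), runs 5′ to 3′ on the strand of the gene from 250 bases before to 50 bases after its start, and has every CG step in capitals. The Rspo4 window is at chr2:151842677-151842976 on the plus strand, the Sfrp5 window at chr19:42202203-42202502 on the minus strand, and the Axin2 window at chr11:108920099-108920398 on the plus strand.
Rspo4: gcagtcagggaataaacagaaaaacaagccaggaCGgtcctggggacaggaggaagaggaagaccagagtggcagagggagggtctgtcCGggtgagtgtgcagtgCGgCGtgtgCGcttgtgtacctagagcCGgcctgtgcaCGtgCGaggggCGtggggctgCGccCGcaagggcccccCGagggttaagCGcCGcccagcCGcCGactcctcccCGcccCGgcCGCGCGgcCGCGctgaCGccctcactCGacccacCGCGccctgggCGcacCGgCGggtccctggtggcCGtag
Sfrp5: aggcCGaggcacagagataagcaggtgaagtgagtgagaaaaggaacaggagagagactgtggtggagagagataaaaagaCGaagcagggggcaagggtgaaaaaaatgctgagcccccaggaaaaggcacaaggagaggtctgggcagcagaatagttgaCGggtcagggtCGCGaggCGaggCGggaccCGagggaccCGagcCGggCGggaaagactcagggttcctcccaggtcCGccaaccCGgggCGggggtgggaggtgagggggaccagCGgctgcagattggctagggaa
Axin2: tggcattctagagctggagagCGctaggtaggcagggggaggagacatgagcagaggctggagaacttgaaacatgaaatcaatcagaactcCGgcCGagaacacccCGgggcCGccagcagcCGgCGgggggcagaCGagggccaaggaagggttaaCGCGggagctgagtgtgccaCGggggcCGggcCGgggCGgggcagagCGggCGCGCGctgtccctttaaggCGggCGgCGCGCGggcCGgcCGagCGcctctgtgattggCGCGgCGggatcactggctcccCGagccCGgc
The Rspo4 and Axin2 windows hold 31 CG steps each, as many as or more than 81.8% of the 12985 promoter windows of genes that passed the threshold. The Sfrp5 window holds 15, at 37.1% of those windows, and 13 of these lie in the last 150 bases shown. Any relation of the CG count to the direction of a difference was not tested. The table held 12 windows for 11 of the 20 members, with 15 to 58 CG steps and a median of 29, against a median of 20 over the windows of all genes that passed. The core letters of the TCF/LEF motif, TCAAAG on either strand, were found in 2 of the 12 windows, those of Fzd1 and Wnt11, and in 11.9% of the 12985 windows. No DNA methylation was measured in the data used here.

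Beyond the named families, the pathway was taken from lists by function, and most of its genes were near their control level. The calls in each pathway list stand beside the 4.18% higher and 3.41% lower over all 12869 genes. Receptors and receptor regulators outside the naming rule had 10 genes at 0.5 FPKM or more, of which 1 was higher and 1 lower, with a median log2 ratio of -0.02. Gpc3, a heparan sulfate proteoglycan that binds Wnts, was at 4.09 and 7.91 FPKM, with a ratio of 1.93 (1.49 to 2.52). Ror2, a receptor of Wnt5a, was at 0.81 FPKM in control and 0.18 FPKM in knockout fat on 31 and 7 counts, a ratio of 0.22 (0.081 to 0.50), and reached 0.5 FPKM in the control library only. Sdc1, a syndecan, was within the rule at 1.51 and 2.57 FPKM with a ratio of 1.70 (1.16 to 2.52), and Lgr6 is given above.

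Of 10 genes for Wnt secretion and extracellular modifiers, 2 were higher and none lower, with a median of 0.08. These were Bgn, which encodes the matrix proteoglycan biglycan, at 44.4 and 75.6 FPKM with a ratio of 1.70 (1.57 to 1.84), and Igfbp4 at 42.3 and 69.6 FPKM with a ratio of 1.65 (1.51 to 1.79). Both also belong to the extracellular matrix or growth factor systems and are not specific to Wnt. Porcn, the enzyme that adds the lipid to Wnts, was at 7.51 and 5.23 FPKM with a ratio of 0.70 (0.53 to 0.91), within the rule. Sulf1, a heparan sulfatase, was at 2.01 and 2.63 FPKM. The antagonist genes Wif1, Sost and Sostdc1 were each below 0.5 FPKM, and Frzb had no value.

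Few of the intracellular genes were past the rule. Of 29 genes of the destruction complex and its relays, 1 was lower and none higher, with a median of 0.01. Ctnnb1, the gene of beta-catenin, was at 119 FPKM in control and 111 FPKM in knockout fat, which gives a ratio of 0.93 (0.89 to 0.97). The lower gene was Frat1, which binds the kinase GSK3, at 4.92 and 2.44 FPKM with a ratio of 0.50 (0.36 to 0.68). Csnk1g1, a casein kinase, had a ratio of 0.55 (0.41 to 0.74), Fbxw11, which tags beta-catenin for breakdown, 1.36 (1.21 to 1.51), and Dact3 2.08 (1.04 to 4.35) on 13 and 28 counts, all within the rule. None of the 20 TCF/LEF factors and nuclear partners was past it, and their median was 0.04. The co-repressor Tle3 had a ratio of 1.496 (1.34 to 1.67) and was past the rule only when FPKM totals were made equal, while Tle4 had 0.70 (0.54 to 0.90), Tle1 1.24 (0.997 to 1.54) and Pygo2 0.83 (0.68 to 1.02).

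Genes often used as readouts of beta-catenin did not move as a block. Of 16, 2 were higher and 2 lower, with a median of -0.09. Cd44, a hyaluronan receptor that is also abundant on immune cells, was at 2.23 and 5.39 FPKM with a ratio of 2.42 (1.90 to 3.11). Ccnd1, the gene of cyclin D1, was at 5.40 and 8.92 FPKM with a ratio of 1.65 (1.38 to 1.98). On the lower side, Id2, an inhibitor of DNA binding, was at 17.98 and 9.24 FPKM with a ratio of 0.51 (0.41 to 0.65), and the immediate early gene Jun at 40.7 and 23.3 FPKM with a ratio of 0.57 (0.52 to 0.63). Besides Axin2, the feedback genes closest to the pathway were chosen after their values were seen. Nkd1 was at 0.85 and 1.37 FPKM with a ratio of 1.61 (1.05 to 2.53), and Apcdd1 was at 7.78 and 6.50 FPKM with a ratio of 0.84 (0.68 to 1.02). Znrf3, in the same list, had a ratio of 0.875 (0.61 to 1.23). Axin2, Apcdd1 and Znrf3 thus lay below 1 and Nkd1 above, with intervals that included 1 for Apcdd1 and Znrf3. In the planar cell polarity and calcium branch, 1 of 32 genes was higher and none lower, with a median of 0.02. It was Plcb1, a phospholipase C, at 2.15 and 4.60 FPKM with a ratio of 2.14 (1.75 to 2.62). Rock1 and Rock2, kinases downstream of RhoA, had ratios of 1.32 (1.15 to 1.51) and 1.36 (1.23 to 1.502), and Scrib 0.72 (0.61 to 0.84).

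**Figure D5:**
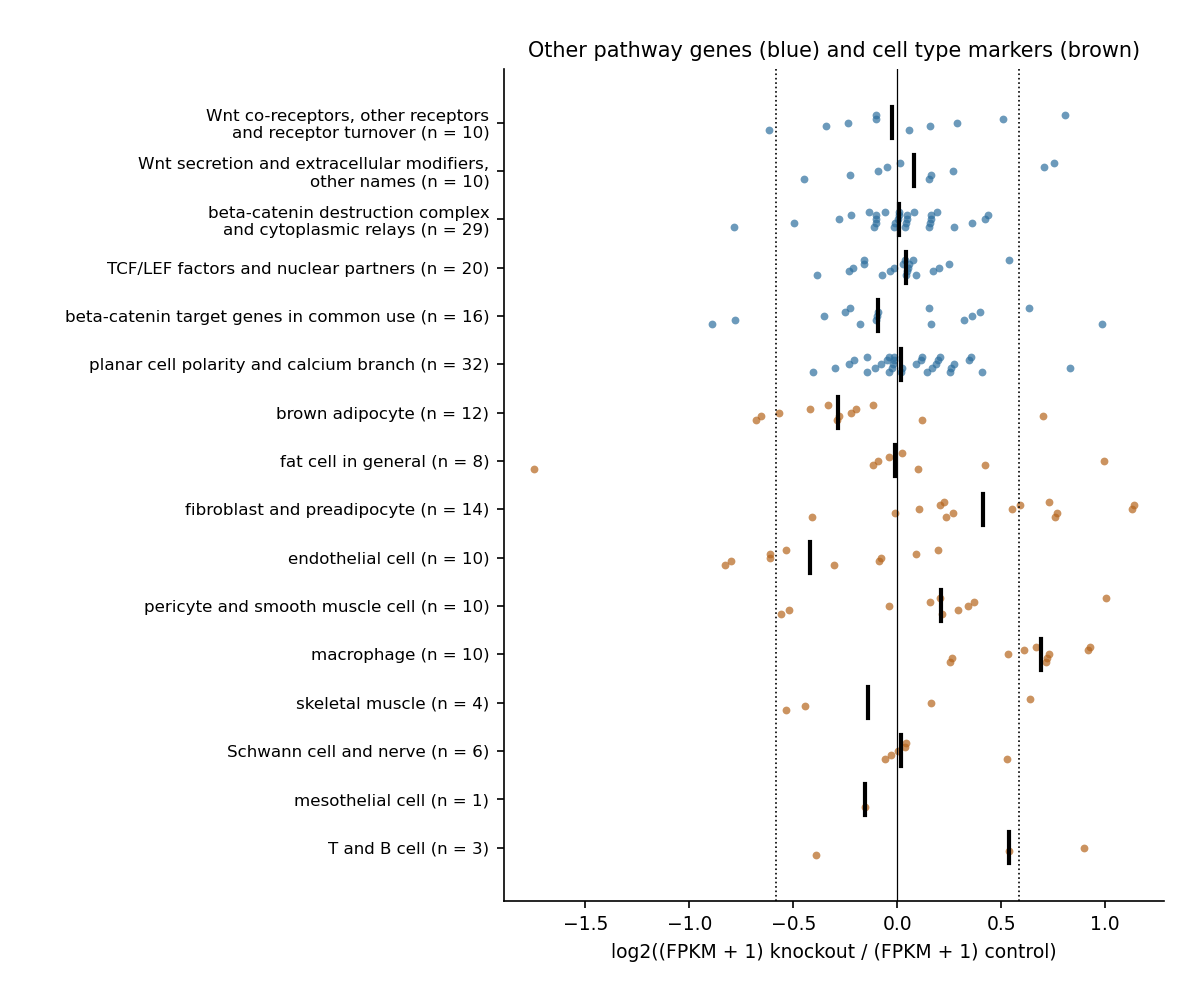
log2((FPKM + 1) ratio) of single genes in the pathway lists (blue) and cell type marker lists (brown), with the list median as a black bar, dotted lines at 1.5-fold, and n the genes at 0.5 FPKM or more. The 6 pathway lists plotted have medians from -0.09 to 0.08. The medians are 0.41 for fibroblast and preadipocyte, 0.69 for macrophage, -0.42 for endothelial and -0.29 for brown adipocyte markers.

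Markers of several cell types differed between the libraries alongside the members. Over all 12869 genes the rule called 4.18% higher and 3.41% lower, the shares to set beside each marker list here and below. In whole tissue, fewer cells of a type and less RNA per cell cannot be told apart. Fibroblast and preadipocyte markers were higher in 6 of 14 and lower in none. Their summed level was 520 FPKM in control and 759 FPKM in knockout fat, and none was at 0. The ratios of the 6 ran from 1.51 (1.45 to 1.57) for Col3a1 to 2.31 (1.88 to 2.84) for Mfap5. The receptors Pdgfra, at 1.27 (1.05 to 1.52), and Pdgfrb, at 0.73 (0.64 to 0.83), were within the rule. Single markers named here and below, other than Adipoq, were chosen after their values were seen. Macrophage markers were higher in 7 of 10 and lower in none, with summed levels of 239 and 385 FPKM. Most of these sums was Lyz2, at 194 and 309 FPKM, from estimated counts that were not whole. All 10 macrophage markers lay above 0, with a median log2 ratio of 0.69. Endothelial markers were lower in 4 of 10 (in 2 when FPKM totals were made equal) and higher in none, with summed levels of 272 and 200 FPKM. The endothelial list was mixed, with 2 genes above 0 and 8 below. Egfl7 had a ratio of 0.56 (0.50 to 0.63), Pecam1 0.94 (0.87 to 1.01) and Vwf 1.20 (1.01 to 1.43). Brown adipocyte markers were lower in 2 of 12 (in 1 with equal totals) and higher in 1, with summed levels of 19893 and 15809 FPKM. Of these 12 markers 10 lay below 0, with a median of -0.29. Intervals wholly below 1 were found for 9 of them, and for 21.2% of all genes. General fat cell markers were lower in 1 and higher in 1 of 8. Adipoq, the adiponectin gene, was at 1087 and 1104 FPKM. The part of these cell types in the values of the members, Gpc3 and Cd44 was not tested.

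The other marker lists were small or near their control level. Pericyte and smooth muscle markers were higher in 1 of 10, with summed levels of 166 and 176 FPKM, and Schwann cell and nerve markers in none of 6, with 255 and 272 FPKM. Skeletal muscle markers summed to 12.4 and 13.6 FPKM, mostly from Mb at 9.16 and 10.4 FPKM, and Ckm had no value. Their 1 higher gene of 4 was Acta1 at 1.38 and 2.71 FPKM, from estimated counts that were not whole. The contractile genes Mylpf, at 0.74 and 0.28 FPKM, and Tnni2, at 0.68 and 0.16 FPKM, lay below their control level. Both rest on at most 5 counts in a library, and their intervals included 1. T and B cell markers summed to 4.39 and 6.01 FPKM with Trac without a value. Their 1 higher gene of 3 was Ptprc, a gene of all leukocytes, at 1.57 and 3.79 FPKM. Cd3g was at 0.85 and 0.41 FPKM on 8 and 4 counts, and Cd2 at 0.19 and 0.73 FPKM on 2 and 8 counts. The intervals of Cd3g (0.11 to 1.79) and Cd2 (0.77 to 37.1) included 1. Cd3e, below 0.5 FPKM, had 6 counts in the control library and no value in the other (interval 0 to 0.82). So few counts give no common direction for lymphocyte genes. Mesothelial markers summed to 0.98 and 0.52 FPKM, and 6 of 9, including Msln, Upk3b and Wt1, had no value.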

How the data were processed

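Polyadenylated RNA of whole brown adipose tissue was sequenced in 2 libraries, 1 per genotype. Per the file headers, the authors deposited 1 line per listed gene, with its expected count, its FPKM and the length of its transcript. RSEM, without a version, and the build mm9 are named in the submitters' processing notes; no aligner is named there. Symbols came from a RefSeq table (GRCm38.p6) for 16134 genes, and 40 had none. A gene not listed in a library was set to 0.

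Ratios are of deposited FPKM without pseudocount. The 95% intervals are Clopper-Pearson, conditional on the summed, rounded expected counts of a gene, and scaled to library size. Calls used log2 of FPKM plus a pseudocount of 1 and a fold of 1.5. Calculations used Python 3.11.15, scipy 1.17.1 and, for TMM factors, edgeR 4.0.16, and the interval and call rule were tested on simulated data. All members at 0.5 FPKM or more and up to 4 genes per pathway list, those furthest from a log2 ratio of 0, were named. The members and lists were chosen with earlier results of these data known. A gene's reads were not separated by strand, since the labels name no stranded kit. Other pseudocounts, filters, folds, interval widths, scalings and trend removals were tried.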

Additional observations from a re-analysis of the deposited data

How the results depend on the processing

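The 20 members kept the sign of their log2 ratio under the 8 other pseudocounts, scalings and trend removals and under 1 chosen after seeing the data, the removal of a trend with length, GC content and expression. With filters, folds and interval widths included, Sfrp1, Sfrp5 and Rspo4 were called under 13 of 15 other settings and Fzd6 under 11. With a pseudocount of 5 FPKM, or a fold of 2, the counts of higher and lower members were 0 and 0. The count of lower members was 2, with Axin2, at a pseudocount of 0.1 FPKM and in CPM, and 0 when FPKM was rescaled to the same total, with or without the 20 most abundant genes. Over all genes, 538 were called higher and 439 lower, against 861 and 715 with a pseudocount of 0.1 FPKM, 136 and 107 with 5 FPKM, and 106 and 79 with a fold of 2. Higher genes made up 55.1% of all calls, and 68.0% and 68.2% under the 2 rescalings to the same total. Among the pathway lists, the median of the other receptors changed sign with scaling (-0.02, and 0.05 with equal totals), that of the destruction complex (-0.02) and of the polarity branch (-0.02) with removal of the trend with length and expression, and a pseudocount of 0.1 FPKM took the higher readout genes of beta-catenin from 2 to 4. Depth limits Wnt2, Sfrp2, Sfrp4, Dkk3 and the members below 0.5 FPKM. No paired analysis was possible because each group has 1 library.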

Other observations

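Regulators of adipocyte formation, the process that Wnt signalling is known to restrain, were for the most part near or slightly below their control level. Of 15 such genes at 0.5 FPKM or more, 1 was higher and 1 lower by the 1.5-fold rule, against 4.18% and 3.41% of all genes. Above 0 lay 4 and below 0 lay 11, and 46.5% of all genes lay above 0. The median log2((FPKM + 1) ratio) was -0.15, against -0.02 for all genes. The list holds genes that promote adipocyte formation and genes that restrain it. Its sign counts and median therefore give no direction for the process. Mest, an imprinted gene that goes with the growth of fat, was at 15.5 FPKM in control and 49.5 FPKM in knockout fat, which gives a ratio of 3.20 (2.86 to 3.62). Klf4, an early factor of adipogenesis, was at 19.4 and 11.1 FPKM, with a ratio of 0.57 (0.50 to 0.66). Dlk1, a preadipocyte marker that restrains differentiation, was at 0.96 and 0.34 FPKM on 40 and 14 counts, a ratio of 0.35 (0.17 to 0.63), and was within the rule because of its low level. Cebpd was at 5.52 and 7.23 FPKM, with a ratio of 1.31 (1.03 to 1.68). The master regulators Pparg and Cebpa, picked out once their values were known, had ratios of 0.94 (0.89 to 0.98) and 0.82 (0.79 to 0.84).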
